A study of Mus musculus with 7 samples.

Results

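The genes described here are 10 members of the glycolytic pathway. They cover glucose uptake (Slc2a1), the preparatory steps from glucose to triose phosphate (Hk2, Gpi1, Pfkl, Aldoa and Tpi1), the energy-yielding steps (Gapdh, Pgk1 and Eno1) and the formation of lactate (Ldha). They were taken by symbol from an RNA-seq table of 24341 genes, in which each of the 10 symbols had a row, and no measured value was used to choose them. Transcripts were measured in B-cell precursor (BCP) cells from the spleen of Eμ-Ret mice. The samples were 3 leukemic and 4 preleukemic ones, which the labels do not pair. The preleukemic samples came from young, healthy mice and the leukemic samples from older moribund mice with overt disease, so age and disease state cannot be told apart. All 7 samples carried the hemizygous Eμ-Ret transgene on a BALB/c background, and none came from transgene-negative mice. The transgene is an oncogenic Ret fusion driven by the immunoglobulin heavy chain enhancer, which is active in B-lineage cells. Per the labels, BCP cells were sorted by flow cytometry from both groups, and the exact ages of these mice were not given in the sources used here.

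Glycolysis converts glucose to pyruvate in the cytosol and yields ATP and NADH without oxygen. Lactate dehydrogenase then regenerates NAD+ by reducing pyruvate to lactate. Growing lymphocytes and many leukemia cells use much glucose in this way, and the transcription factors Myc and HIF-1 are known to activate many genes of the pathway.

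The promoters of the members differed in the short DNA words that these factors are known to bind. RefSeq start sites on GRCm38.p6, the assembly also known as mm10, gave 15 windows of the 250 bases before a start site for the 10 members. The words searched, on both strands, were CACGTG, the E-box recognized by Myc and its partner Max, and ACGTG and GCGTG, which form the core of the HIF response element. CACGTG contains ACGTG, so each E-box is also counted as an ACGTG match. CACGTG was found in 1 of the 10 members, against 6.86% of all 27025 genes with a window. ACGTG was found in 5 members (Slc2a1, Hk2, Aldoa, Pgk1 and Ldha), against 18.5% of genes. GCGTG was found in 5 members (Slc2a1, Pfkl, Gapdh, Eno1 and Ldha), against 30.85% of genes. Over the 32851 windows themselves, the shares were 6.02% for CACGTG, 16.6% for ACGTG and 28.2% for GCGTG. The GC box bound by Sp1, GGGCGG, was found in 8 members, against 35.4% of genes, and Pfkl and Gapdh held none. Gpi1 and Tpi1 held neither the E-box nor either HIF core in these windows. Part of the Tpi1 window, all of the Gapdh window and the end of the Eno1 window at chr4:150236974-150237223 lie inside the loci measured here. So do all of the Aldoa windows at chr7:126799255-126799504 and chr7:126799179-126799428 and the Ldha window at chr7:46846832-46847081. Those windows therefore do not hold only sequence before the gene. The ACGTG and GGGCGG matches of Aldoa and the GCGTG match of Ldha came only from such windows. Genes with more than 1 start site have more windows to match, the windows were not matched for base composition, and a match does not show that a factor binds there.

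The windows of 4 members are printed below, 5′ to 3′ on the coding strand, because Ldha and Tpi1 passed the test between groups and Slc2a1 and Hk2 had the smallest differences. Capitals mark the E-box CACGTG and the HIF cores ACGTG and GCGTG or their reverse complements. The positions are chr7:46845554-46845803 on the plus strand for Ldha (the first of its start sites), chr6:124814159-124814408 on the minus strand for Tpi1, chr4:119108495-119108744 on the plus strand for Slc2a1 and chr6:82774455-82774704 on the minus strand for Hk2. The Ldha window is the only member window with an E-box and holds 2 of them, beginning 145 and 48 bases before the start site. The Tpi1 window holds no capitals. The Tpi1 locus measured here ends at 124814296, inside that window, so the lack of matches does not describe promoter sequence alone.
Ldha: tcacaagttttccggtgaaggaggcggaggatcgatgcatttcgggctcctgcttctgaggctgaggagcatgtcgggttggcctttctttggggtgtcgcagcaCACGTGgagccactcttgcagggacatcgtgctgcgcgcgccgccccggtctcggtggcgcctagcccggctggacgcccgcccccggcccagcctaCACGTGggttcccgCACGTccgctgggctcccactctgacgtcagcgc
Tpi1: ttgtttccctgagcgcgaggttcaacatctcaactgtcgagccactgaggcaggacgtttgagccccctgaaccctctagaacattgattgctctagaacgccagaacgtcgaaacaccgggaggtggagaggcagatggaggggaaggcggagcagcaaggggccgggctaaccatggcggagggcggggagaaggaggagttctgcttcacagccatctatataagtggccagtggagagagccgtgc
Slc2a1: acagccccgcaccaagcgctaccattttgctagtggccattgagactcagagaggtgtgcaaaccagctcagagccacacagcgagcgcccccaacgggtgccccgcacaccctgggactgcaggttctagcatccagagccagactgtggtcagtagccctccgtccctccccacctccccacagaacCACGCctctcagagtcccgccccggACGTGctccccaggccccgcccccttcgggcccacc
Hk2: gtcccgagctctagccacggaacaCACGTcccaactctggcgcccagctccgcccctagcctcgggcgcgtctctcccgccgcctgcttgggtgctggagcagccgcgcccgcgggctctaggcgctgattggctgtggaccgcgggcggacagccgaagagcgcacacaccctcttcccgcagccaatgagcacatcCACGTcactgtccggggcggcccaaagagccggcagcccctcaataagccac

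All 7 samples expressed the BCP genes, and the leukemic samples also held more transcripts of other blood cells. Depth, estimated from the steps between low values, was 15300000 to 15800000 fragments in the leukemic and 13400000 to 14700000 in the preleukemic samples. The summed FPKM (fragments per kilobase of transcript, scaled to sequencing depth) of 16 BCP markers was 4325 to 6871 in the leukemic and 8351 to 10477 in the preleukemic samples. The summed level of 18 erythroid markers was 5818, 26725 and 13068 FPKM in leukemic replicates 1 to 3, 2860 FPKM in preleukemic replicate 1 and 424 to 449 FPKM in the other preleukemic samples. Macrophage markers summed to 168 to 381 FPKM in the leukemic and 40.9 to 92.0 FPKM in the preleukemic samples, and neutrophil markers to 1429 to 1771 and 150.2 to 874 FPKM. Preleukemic replicate 1 was the highest of its group for the erythroid, macrophage and neutrophil sums. Some results are also given without that sample. Leaving it out widened the erythroid difference, with a median log2 fold change of 5.35 against 4.46 over all samples. A result that holds without it is thus not freed of the part of other blood cells. In bulk RNA, fewer cells of a type and less RNA per cell cannot be told apart.

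Of the 10 glycolysis genes, Tpi1 and Ldha were significantly higher in the leukemic samples, and none was significantly lower. Differences are on the scale of log2(FPKM + 1), and the test was limma over the 10541 genes whose FPKM summed to 10 or more, with Benjamini-Hochberg adjustment and a threshold of 0.05. The 2 called members compare with 14.7% of all tested genes called in either direction, with 8.47% called higher and with 6.26% called lower. Every member had a log2 fold change above 0 (47.9% of tested genes did), from 0.06 for Slc2a1 to 0.51 for Tpi1, with a median of 0.23 against -0.02 over all genes tested. After FPKM was rescaled to the same total in each sample, which moved the median of all genes to -0.18, 8 of the 10 stayed above 0, Slc2a1 and Hk2 turned negative, and the median of the members was 0.07. In 5 members (Gpi1, Aldoa, Tpi1, Gapdh and Ldha) all 3 leukemic values lay above all 4 preleukemic values, a pattern seen in 14.9% of tested genes. In the other 5 the groups overlapped, and no member had all leukemic values below all preleukemic values, as 17.1% of tested genes did (32% did not overlap in either direction).

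**Figure D1:**
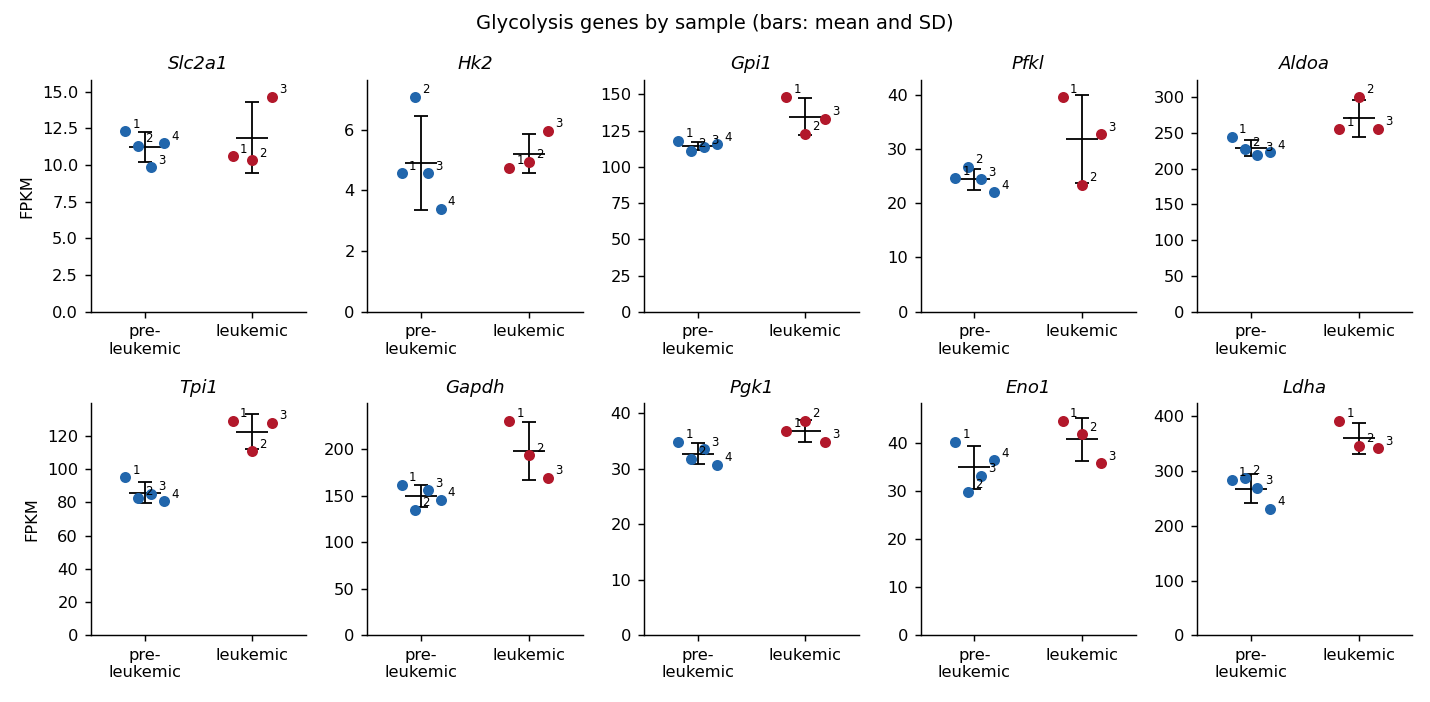
FPKM of each of the 10 genes in the 4 preleukemic (blue) and 3 leukemic (red) samples, with numbers giving the replicate and bars the mean and SD. Each vertical axis starts at 0 and has its own range. The groups do not overlap for Gpi1, Aldoa, Tpi1, Gapdh and Ldha.

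The levels of the members spanned 61.1-fold, from 5.03 FPKM for Hk2 to 308 FPKM for Ldha as means over the 7 samples. Since FPKM is per length, the genes can be ordered by level. The order was Ldha, Aldoa, Gapdh, Gpi1, Tpi1, Eno1, Pgk1, Pfkl, Slc2a1 and Hk2. Each neighbor in this order was above the next in all 7 samples, except that Eno1 exceeded Pgk1 in 5 of 7 and Pgk1 exceeded Pfkl in 6 of 7. The spread of Eno1 (37.4 ± 5.15 FPKM, SD, n = 7) and that of Pgk1 (34.5 ± 2.76) overlap. The place of Eno1 in the order is also uncertain, since reads could be assigned to its near-identical copy Eno1b, described below. Eno1b was listed at 50.7 to 100.1 FPKM, above Eno1 in every sample. Slc2a1 and Hk2, which act in the uptake and phosphorylation of glucose, thus had the lowest transcript levels of the set in these cells.

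Glucose uptake was represented by Slc2a1 (chr4:119108745-119137329, mm10), which encodes GLUT1, the basal glucose transporter of most cells. Its level was 10.6, 10.3 and 14.7 FPKM in leukemic replicates 1 to 3 and 12.3, 11.3, 9.84 and 11.5 FPKM in preleukemic replicates 1 to 4. The groups overlap, and leukemic replicate 3 is the only leukemic sample above the preleukemic range. The log2 fold change was 0.06 (SE 0.14, 95% interval -0.26 to 0.38, limma adjusted p = 0.786). It turned to -0.10 on rescaling to a common total and to -0.09 without leukemic replicate 3, so no direction was resolved.

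Slc2a3 encodes GLUT3, a high-affinity glucose transporter of lymphocytes and neurons. It was at 16.6, 15.9 and 21.9 FPKM in the leukemic and 8.59, 13.4, 11.4 and 10.7 FPKM in the preleukemic samples, without overlap. Its log2 fold change was 0.67 (SE 0.16, limma adjusted p = 0.0376). The call was lost without preleukemic replicate 1 (0.57, adjusted p = 0.0684) and on rescaling (0.54, 0.0657). It was also lost without preleukemic replicates 2, 3 or 4 or leukemic replicates 1 or 3 (adjusted p 0.0530 to 0.109). Of the summed FPKM of GLUT1 and GLUT3, Slc2a1 made up 39.5% ± 0.616 (SD, n = 3) in the leukemic and 50.7% ± 6.09 (n = 4) in the preleukemic samples. The share was 38.9% to 40.1% in the leukemic and 45.8% to 58.9% in the preleukemic samples, a difference of -11.2 percentage points (exact two-sided permutation p = 0.0571, adjusted p = 0.171 over 6 families). The difference did not pass the threshold. The smallest p that 35 labelings allow is 0.0286, so after adjustment over 6 families no family could pass by itself.

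Hk2 (chr6:82725027-82774454) encodes hexokinase 2, an inducible enzyme that traps glucose as glucose 6-phosphate. Its level was 4.73, 4.95 and 5.95 FPKM in the leukemic and 4.56, 7.07, 4.56 and 3.39 FPKM in the preleukemic samples. Preleukemic replicate 2 was the highest of all 7 samples and preleukemic replicate 4 the lowest, so the leukemic values lay inside the preleukemic range. This gave a log2 fold change of 0.10 (SE 0.21, 95% interval -0.38 to 0.59, limma adjusted p = 0.747), which turned to -0.03 on rescaling and to -0.03 without preleukemic replicate 4. Myc showed the same order at its extremes within the preleukemic group, at 68.7, 145.7, 62.5 and 50.3 FPKM in replicates 1 to 4. In the leukemic group both were lowest in replicate 1, but Myc was highest in replicate 2 (139 FPKM) and Hk2 in replicate 3. Preleukemic replicate 2, where Myc was highest, had the highest level of its group for 3 members and the lowest for 3. A relation of Myc to Hk2 was not tested. Hk1, the constitutive hexokinase, was more abundant, at 33.6 ± 1.16 FPKM (SD, n = 3) in the leukemic and 30.2 ± 1.70 (n = 4) in the preleukemic samples, with a log2 fold change of 0.15 (limma adjusted p = 0.203) that was -0.01 on rescaling. Hk2 made up 12.8% ± 1.57 of hexokinase FPKM in the leukemic and 13.6% ± 3.15 in the preleukemic samples (exact permutation p = 0.771).

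Gpi1 (chr7:34201327-34230336) encodes glucose 6-phosphate isomerase. Its level was 148, 123 and 133 FPKM in the leukemic and 118, 111, 114 and 115 FPKM in the preleukemic samples. All leukemic samples lay above the narrow preleukemic range (SD 2.88 FPKM), leukemic replicate 2 by the least. The log2 fold change was 0.23 (SE 0.08, 95% interval 0.04 to 0.42), and the limma adjusted p of 0.0982 missed the threshold.

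Pfkl (chr10:77986949-78009796) encodes the liver-type subunit of phosphofructokinase, the main control point of the pathway. Its level was 39.6, 23.4 and 32.7 FPKM in the leukemic and 24.6, 26.8, 24.4 and 22.0 FPKM in the preleukemic samples. Leukemic replicates 1 and 3 lay above the preleukemic range, and replicate 2 inside it. For Pfkl the log2 fold change was 0.34 (SE 0.17, limma adjusted p = 0.198), and it became 0.54 with adjusted p = 0.0327 when leukemic replicate 2 was left out. Pfkp, the platelet-type subunit, showed the opposite order over the same samples, at 7.91, 22.4 and 17.9 FPKM. Pfkl thus made up 62.7%, 41.2% and 50.2% of phosphofructokinase FPKM in leukemic replicates 1 to 3, against 46.4% to 50.2% in the preleukemic samples. The mean shares did not differ beyond that spread (51.4% ± 10.8 against 48.7% ± 1.77, exact permutation p = 0.686). Pfkm, the muscle-type subunit, was 15.7, 11.0 and 14.5 FPKM in the leukemic and 10.9, 8.23, 7.18 and 6.46 FPKM in the preleukemic samples. Its log2 fold change of 0.69 was at the threshold (limma adjusted p = 0.0495), and 12 of 16 alternatives lost the call, the omission of leukemic replicates 1 or 3 or preleukemic replicates 2, 3 or 4 among them, with adjusted p up to 0.147.

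Aldoa (chr7:126795234-126800447) encodes aldolase A, which splits fructose 1,6-bisphosphate. Its level was 255, 300.5 and 256 FPKM in the leukemic and 245, 227, 219.9 and 223 FPKM in the preleukemic samples. The groups did not overlap, with leukemic replicate 2 the highest and preleukemic replicate 1 close below the other leukemic samples. The log2 fold change was 0.24 (SE 0.09, 95% interval 0.04 to 0.44, limma adjusted p = 0.0982). Aldoa made up 98.8% of aldolase FPKM in the leukemic and 99.0% in the preleukemic samples.

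Tpi1 (chr6:124808661-124814296) encodes triose phosphate isomerase, which converts dihydroxyacetone phosphate to glyceraldehyde 3-phosphate. It had the largest difference of the 10 genes. Its level was 129, 111 and 128 FPKM in the leukemic and 95.2, 82.4, 85.1 and 80.8 FPKM in the preleukemic samples. Every leukemic sample was above every preleukemic sample, and the gap between the groups was wider than the preleukemic range. The means were 123 ± 10.4 FPKM (SD, n = 3) and 85.9 ± 6.45 (n = 4), a log2 fold change of 0.51 (SE 0.09, 95% interval 0.29 to 0.72, limma adjusted p = 0.0175). The call held on rescaling (0.35, adjusted p = 0.0488), on quantile normalization (0.44, 0.0299) and without preleukemic replicate 1 (0.56, 0.0226). It was lost without preleukemic replicate 2 (adjusted p = 0.0533), 3 (0.0574) or 4 (0.0657), with log2 fold changes of 0.48 to 0.50.

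Gapdh (chr6:125161852-125166467) encodes glyceraldehyde 3-phosphate dehydrogenase, which makes the NADH of the pathway and is often used as a reference gene in quantitative PCR. Its level was 231, 193 and 169 FPKM in the leukemic and 162, 135, 156 and 146 FPKM in the preleukemic samples. The groups did not overlap, though leukemic replicate 3 was close to preleukemic replicate 1. The means were 198 ± 31.0 FPKM (SD, n = 3) and 149.5 ± 11.8 (n = 4), a log2 fold change of 0.39 (SE 0.12, 95% interval 0.11 to 0.67), and the limma adjusted p was 0.0678. Without leukemic replicate 3 the log2 fold change was 0.50, with adjusted p = 0.0419.

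Pgk1 (chrX:106187100-106203699) encodes phosphoglycerate kinase, which forms the first ATP of the pathway. Its level was 36.9, 38.7 and 34.8 FPKM in the leukemic and 34.9, 31.8, 33.5 and 30.7 FPKM in the preleukemic samples. The groups met at leukemic replicate 3 and preleukemic replicate 1, which had nearly the same value. For Pgk1 the log2 fold change was 0.16 (SE 0.08, 95% interval -0.02 to 0.35, limma adjusted p = 0.184). Pgam1, which encodes phosphoglycerate mutase for the next step, had a log2 fold change of 0.30 (limma adjusted p = 0.151).

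Eno1 (chr4:150237197-150248873) encodes enolase 1, which forms phosphoenolpyruvate. Its level was 44.6, 41.8 and 35.8 FPKM in the leukemic and 40.3, 29.9, 33.1 and 36.4 FPKM in the preleukemic samples. The groups overlap, since preleukemic replicates 1 and 4 exceeded leukemic replicate 3. For Eno1 the log2 fold change was 0.22 (SE 0.12, 95% interval -0.07 to 0.51, limma adjusted p = 0.249). These values are uncertain because of Eno1b, an annotated retrogene copy. The longest transcripts of the pair align over 1652 columns with 99.5% identity and share an identical run of 751 bases, so reads could be assigned to either copy. Eno1b was listed at 86.7, 95.7 and 100.1 FPKM in the leukemic and 64.0, 77.7, 60.7 and 50.7 FPKM in the preleukemic samples, above Eno1 in every sample. The groups did not overlap for Eno1b, whose log2 fold change was 0.58 (limma adjusted p = 0.0374). That call was lost on rescaling (0.42, 0.0815), without leukemic replicates 2 or 3, and without preleukemic replicates 1, 3 or 4 (0.0686 to 0.0995). With both rows added, an alternative chosen after seeing the data, the log2 fold change was 0.46 (SE 0.09, limma adjusted p = 0.0217). All enolase rows together summed to 138, 145 and 149 FPKM in the leukemic and 90.3 to 114 FPKM in the preleukemic samples.

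Ldha (chr7:46845804-46855627) encodes the A subunit of lactate dehydrogenase and had the highest level of the 10 genes. Its level was 392, 346 and 342 FPKM in the leukemic and 284, 288, 269.8 and 231 FPKM in the preleukemic samples. The groups did not overlap, with leukemic replicate 1 the highest and preleukemic replicate 4 the lowest. The means were 360.0 ± 28.0 FPKM (SD, n = 3) and 268 ± 25.8 (n = 4), a log2 fold change of 0.43 (SE 0.10, 95% interval 0.19 to 0.66, limma adjusted p = 0.0334). The call depended on the scaling and on single samples. It was lost on rescaling (0.26, adjusted p = 0.123), on quantile normalization (0.27, 0.133), without leukemic replicate 1 (0.36, 0.0687) and without preleukemic replicates 1, 2, 3 or 4 (0.36 to 0.46, adjusted p 0.0581, 0.0623, 0.0879 and 0.0804). Ldhb, the B subunit, was listed at 0.0661, 0.525 and 0.505 FPKM in the leukemic and 1.23, 2.25, 1.29 and 2.66 FPKM in the preleukemic samples, and its sum was below the filter. Ldha made up 99.9% ± 0.0611 of lactate dehydrogenase FPKM in the leukemic and 99.3% ± 0.326 in the preleukemic samples, without overlap (exact permutation p = 0.0571, adjusted p = 0.171).

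**Figure D2:**
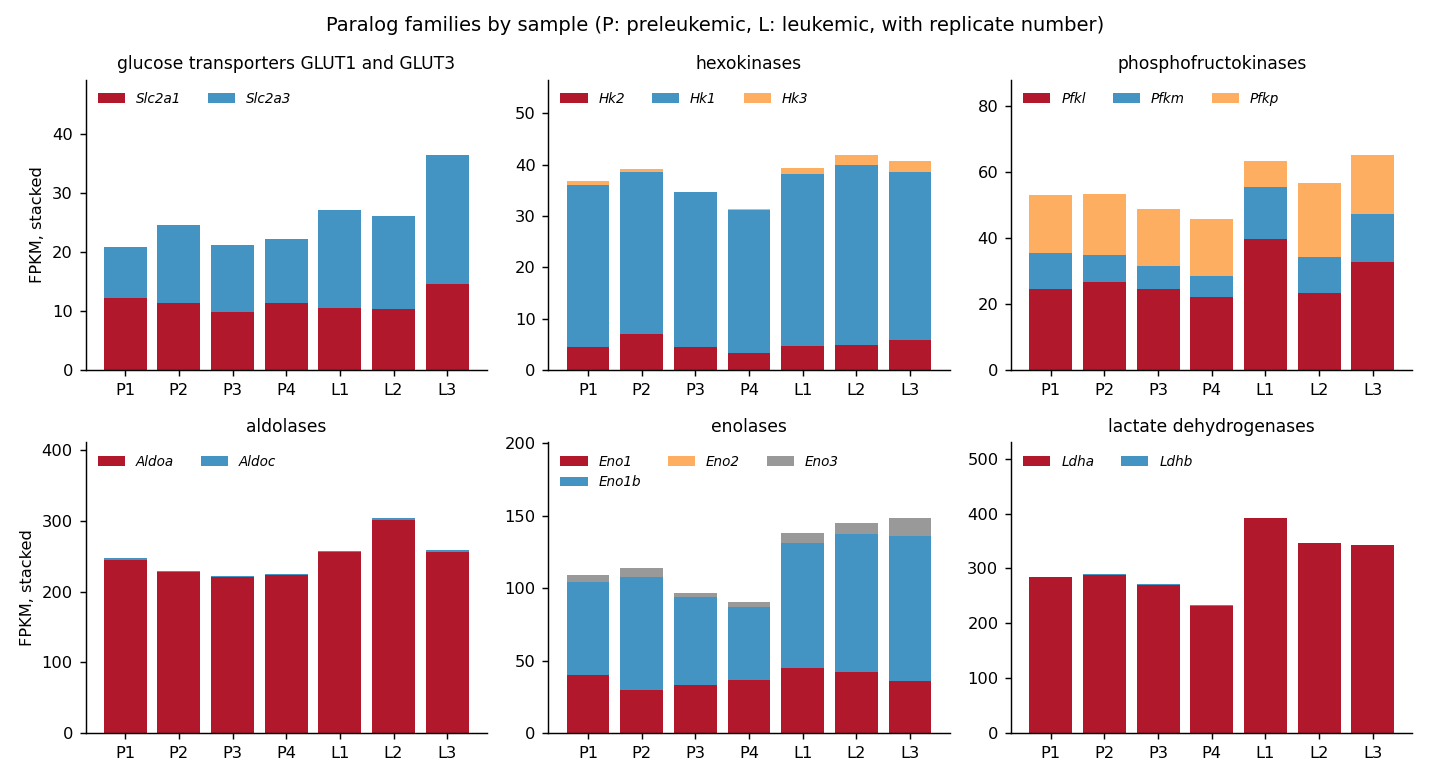
Stacked FPKM of the paralogs of 6 members in each sample, with the member in red at the base of each bar (P, preleukemic; L, leukemic; numbers are replicates). Pfkl takes 62.7% of its family in leukemic replicate 1 and 41.2% in replicate 2, and Eno1b takes the larger part of the enolase bars.

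The rest of the pathway was read from a list of 27 other genes of glycolysis and glucose transport. Of these, 15 passed the filter, 7 were significantly higher in the leukemic samples (46.7%, against 8.47% of all tested genes), 1 was lower, and their median log2 fold change was 0.58. The list was written with earlier results of these data known, and 12 of its 27 genes were too low to test. Slc2a4 and Pklr, counted among the higher genes, reached the filter only through their leukemic values. The share of 46.7% thus depends in part on the filter. On rescaling to a common total, 4 were higher and 1 lower, with a median of 0.42. Without preleukemic replicate 1 the counts were 5 and 1, without replicate 2 they were 2 and 1, without replicate 3 they were 1 and 1, and without replicate 4 they were 0 and 1.

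Pkm encodes the muscle-type pyruvate kinase, which forms pyruvate and the last ATP of the pathway, and was the most abundant gene of the list. Its level was 542.5, 483 and 441 FPKM in the leukemic and 308, 301, 368 and 313 FPKM in the preleukemic samples. All leukemic samples exceeded all preleukemic samples. The log2 fold change was 0.60 (SE 0.10, limma adjusted p = 0.0167) and 0.43 on rescaling (0.0213), and the call was lost without preleukemic replicate 2 (0.57, 0.0503) or 4 (0.59, 0.0629).

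Bpgm and Pklr, known for their roles in red blood cells, had the largest differences of the list. Bpgm, which makes 2,3-bisphosphoglycerate, was at 30.2, 119.5 and 52.8 FPKM in leukemic replicates 1 to 3 and at 16.0, 9.07, 9.06 and 12.9 FPKM in preleukemic replicates 1 to 4 (log2 fold change 2.24, limma adjusted p = 0.0207). Pklr, the liver and red cell pyruvate kinase, was at 7.09, 16.4 and 11.8 FPKM in the leukemic samples, at 5.84 FPKM in preleukemic replicate 1 and at 0.0894 to 0.418 FPKM in the other preleukemic samples (2.66, adjusted p = 0.0368). Both were highest in leukemic replicate 2 and, within the preleukemic group, in replicate 1, the samples in which the summed erythroid markers were also highest in their groups. The erythroid part in these differences was not tested. Bpgm lost its call without preleukemic replicates 2, 3 or 4 (adjusted p 0.0619 to 0.0669), and Pklr lost it without leukemic replicates 2 or 3 or preleukemic replicates 2, 3 or 4.

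Slc2a4, which encodes the insulin-responsive transporter GLUT4, was low in level, at 2.24, 5.85 and 5.00 FPKM in the leukemic and 0.01 to 0.776 FPKM in the preleukemic samples, where 0.01 is the lowest value listed. Its log2 fold change was 2.05 (limma adjusted p = 0.0152), and the call was lost without preleukemic replicates 3 or 4. Slc2a9, which encodes the urate transporter GLUT9, was the gene that fell, from 27.9 ± 2.41 FPKM (SD, n = 4) to 16.0 ± 1.33 (n = 3), a log2 fold change of -0.77 (limma adjusted p = 0.0092). It kept its call under 15 of 16 alternatives, the exception being the fit with replicate number as a block.

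**Figure D3:**
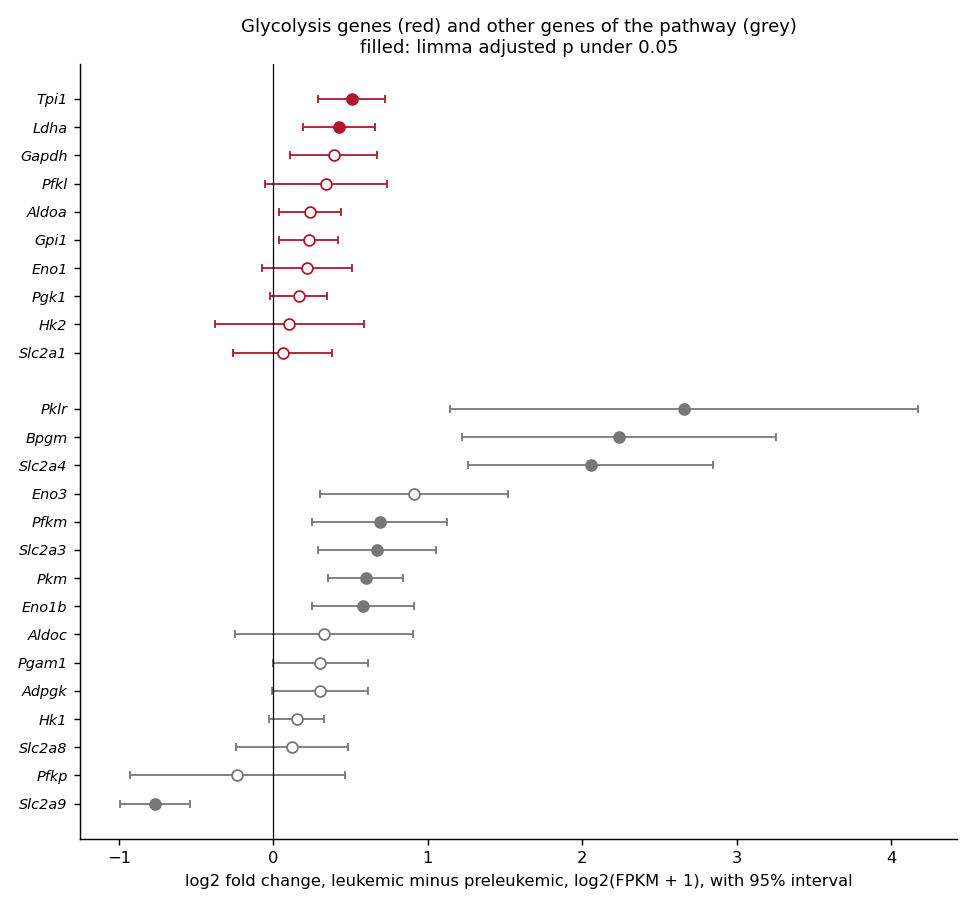
Log2 fold change, leukemic minus preleukemic, of the 10 genes (red) and of the 15 tested genes of the rest of the pathway (grey), on the scale of log2(FPKM + 1), with bars for the 95% interval of limma and filled points for adjusted p under 0.05. The members lie between 0.06 and 0.51, and the other genes between -0.77 (Slc2a9) and 2.66 (Pklr). Of the other genes, some lie inside the member range, such as Hk1 (0.15) and Pgam1 (0.30). Pkm (0.60), Pfkm (0.69) and Slc2a3 (0.67) are among those above it.

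Enzymes that set fructose 2,6-bisphosphate, an activator of phosphofructokinase, were mostly not called. Of 4 tested, Pfkfb4 was higher (0.62, limma adjusted p = 0.0459; on rescaling 0.57, 0.0734), at 3.27 to 4.80 FPKM in the leukemic and 1.83 to 2.55 FPKM in the preleukemic samples. That call was lost with each sample left out except leukemic replicate 2. Pfkfb3, the most abundant of them, was at 33.9 ± 4.62 FPKM (SD, n = 3) in the leukemic and 43.0 ± 4.44 (n = 4) in the preleukemic samples (-0.34, limma adjusted p = 0.0999), and was called lower on rescaling (-0.51, 0.0239). The list thus went from 1 higher and 0 lower to 0 higher and 1 lower with the scaling, where rescaling called 27.7% of all tested genes in either direction. Pfkfb2 (0.13, adjusted p = 0.510) and Tigar (-0.37, 0.268) overlapped between the groups.

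Downstream of pyruvate, 2 of 15 tested genes of lactate and pyruvate transport and of pyruvate dehydrogenase were called, both higher. The median over the list was 0.02, and -0.14 on rescaling. Bsg encodes basigin, the chaperone of the monocarboxylate transporters, and was at 191, 302 and 236 FPKM in the leukemic and 145, 111, 131 and 117 FPKM in the preleukemic samples (0.92, limma adjusted p = 0.0172). Its locus in the table is merged with neighboring genes (chr10:79697305-80369637), so its value is uncertain. Mpc1, a subunit of the mitochondrial pyruvate carrier, was at 23.1, 20.5 and 15.2 FPKM in the leukemic and 10.3 to 11.8 FPKM in the preleukemic samples (0.75, adjusted p = 0.0191). Both calls held without preleukemic replicate 1 and were lost without replicate 2, 3 or 4. The lactate transporter gene Slc16a1 had a log2 fold change of 0.02, and -0.14 on rescaling (limma adjusted p = 0.950 and 0.565), while the pyruvate dehydrogenase subunits Pdha1 (-0.08, adjusted p = 0.695) and Pdhb (-0.06, 0.666) overlapped between groups.

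In the pentose phosphate pathway, which branches off at glucose 6-phosphate and makes NADPH and ribose, 2 of 10 tested genes were higher and 1 was lower. Over all tested genes, 8.47% were higher and 6.26% lower. The balance turned to 1 higher and 3 lower on rescaling, with Pgls (-0.76, limma adjusted p = 0.0368) and Rpe (-0.28, 0.0388) called lower there. Rescaling called 2231 of all 10541 tested genes lower, so this shift is not particular to the pathway. G6pdx, the entry enzyme, was at 25.1, 22.6 and 24.8 FPKM in the leukemic and 18.5, 13.2, 15.4 and 13.1 FPKM in the preleukemic samples (0.66, limma adjusted p = 0.0210, and 0.52 on rescaling). Pgd, which follows in the oxidative branch, was at 70.9 to 78.0 FPKM in the leukemic and 56.5 to 59.8 FPKM in the preleukemic samples (0.36, adjusted p = 0.0212), and its call was lost on rescaling (0.19, 0.119). For both genes the groups did not overlap. H6pd, the enzyme of the endoplasmic reticulum, was lower at 7.48 to 10.2 against 12.1 to 16.2 FPKM (-0.64, limma adjusted p = 0.0264). The most abundant genes of the list were not called on the deposited scale, with Tkt at 0.30, Taldo1 at 0.31 and Pgls at -0.59. G6pdx lost its call without preleukemic replicates 2, 3 or 4, Pgd when any 1 preleukemic sample was left out, and H6pd without preleukemic replicates 1, 3 or 4.

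Most of the known regulators of these genes had log2 fold changes below 0, but few were called. Of 14 tested, 3 were above 0, the median was -0.17, 2 were higher (Epas1, which encodes HIF-2α, and Prkaa1, a catalytic subunit of AMP kinase) and 2 were lower (Arnt, the partner of HIF-1α, and Hif1an, its inhibitor). On rescaling, 1 was higher and 7 were lower, with a median of -0.34, where 27.7% of all tested genes were called in either direction. Without preleukemic replicates 1, 2, 3 or 4, none of the 14 was called. Epas1 was low in level, with an FPKM sum below 70. Its call (1.32, limma adjusted p = 0.0479) was lost with no filter on low values (0.0574) and thus depends in part on the filter. Myc was at 54.8, 139 and 108 FPKM in the leukemic samples, overlapping the preleukemic values given above (0.32, limma adjusted p = 0.620). Hif1a was at 34.5, 26.8 and 22.9 FPKM in the leukemic and 30.5 to 32.2 FPKM in the preleukemic samples (-0.18, adjusted p = 0.354). Txnip, which restrains glucose uptake, had a log2 fold change of -0.33 (adjusted p = 0.124) and was lower on rescaling (-0.50, 0.0419), and Max, the partner of Myc, of -0.01. Leukemic replicate 1 had the highest levels of 6 of the 10 glycolysis genes in its group and the lowest Myc of its group. The relation of these regulators to the glycolysis genes was not tested.

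Sample by sample, the glycolysis genes did not move as a block. The summed FPKM of the 10 genes was 1292, 1192 and 1152 in the leukemic and 1020, 950.1, 949.6 and 900.4 in the preleukemic samples, so every leukemic sum was above every preleukemic sum. As a share of the total FPKM of a sample, the sum was 0.254%, 0.221% and 0.227% in the leukemic and 0.222%, 0.212%, 0.201% and 0.191% in the preleukemic samples, and leukemic replicate 2 fell just below preleukemic replicate 1. Preleukemic replicate 1 had the highest level within its group for 7 of the 10 members, and preleukemic replicate 4 the lowest for 5. In leukemic replicate 1, Pfkl, Gapdh, Tpi1 and Ldha were 0.55 to 0.68 above the preleukemic mean on the log2 scale, while Slc2a1 and Hk2 were at -0.07 and -0.01. In leukemic replicate 3, Tpi1 was 0.57 above that mean and Eno1 0.04.

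Markers of cell division were read in the same samples. Of 16 tested, 1 was called higher, Mki67, with a median log2 fold change over the list of 0.47. Their summed level was 1352 to 2369 FPKM in the leukemic and 931 to 1577 FPKM in the preleukemic samples. Their median deviation from the preleukemic mean was 0.94, 0.49 and 0.09 in leukemic replicates 1 to 3 and 0.32, -0.43, 0.18 and -0.02 in preleukemic replicates 1 to 4. Leukemic replicate 1 and preleukemic replicate 1 were thus highest in their groups for both the division markers and most glycolysis genes, but Tpi1 and Ldha in leukemic replicate 3 lay 0.57 and 0.35 above the preleukemic mean where the division markers lay 0.09 above it. The part of division markers and of other blood cells in the results was not tested.

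**Figure D4:**
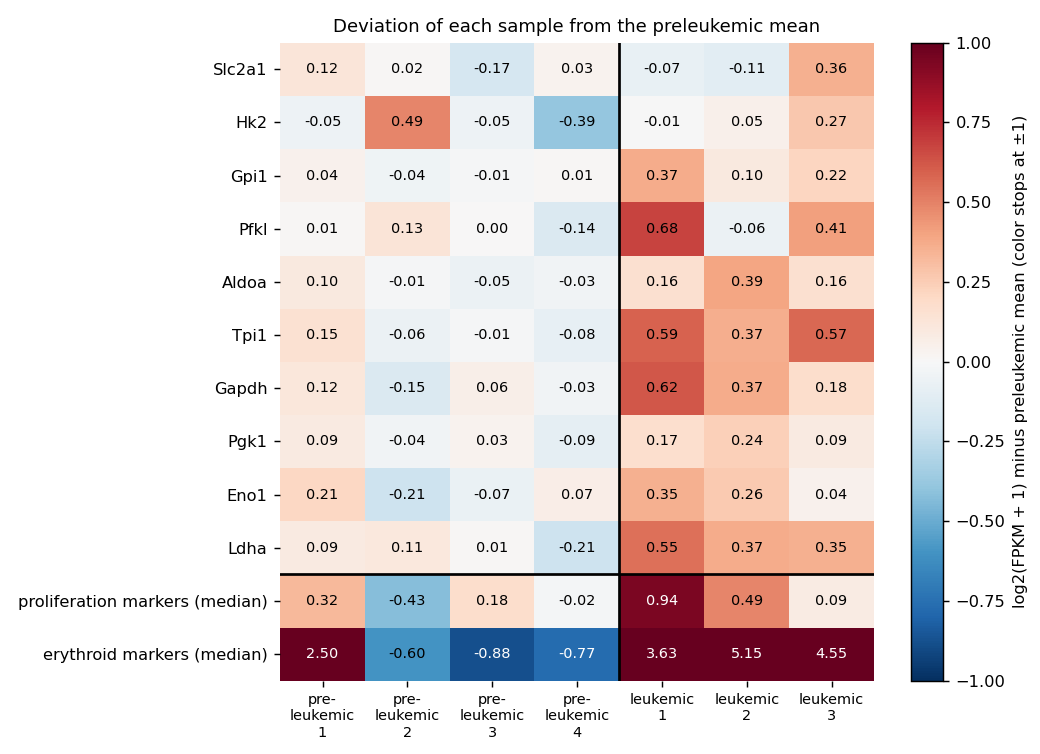
Difference of log2(FPKM + 1) from the preleukemic mean for each gene (rows) in each sample (columns), with the medians of 16 division markers and 17 tested erythroid markers below the line. Colors stop at ±1, and printed numbers give the values. The erythroid medians are 3.63 to 5.15 in the leukemic samples, and preleukemic replicate 1 is the only preleukemic sample with an erythroid median above 0.

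The members lie on chromosomes 4, 6, 7, 10 and X. Their chromosomes had median log2 fold changes of -0.08 to -0.04 over all tested genes, whereas the medians of chromosomes 9 and 17 were 0.22 and 0.35. Tpi1 exceeded the median of chromosome 6 by 0.58 and lay above 90.3% of its 493 tested genes, and Ldha exceeded that of chromosome 7 by 0.50 and lay above 88.0% of 782. Slc2a1 and Hk2 exceeded the medians of their chromosomes by 0.10 and 0.17. Pkm lies on chromosome 9, and its difference of 0.60 was 0.38 above the median there.

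**Figure D5:**
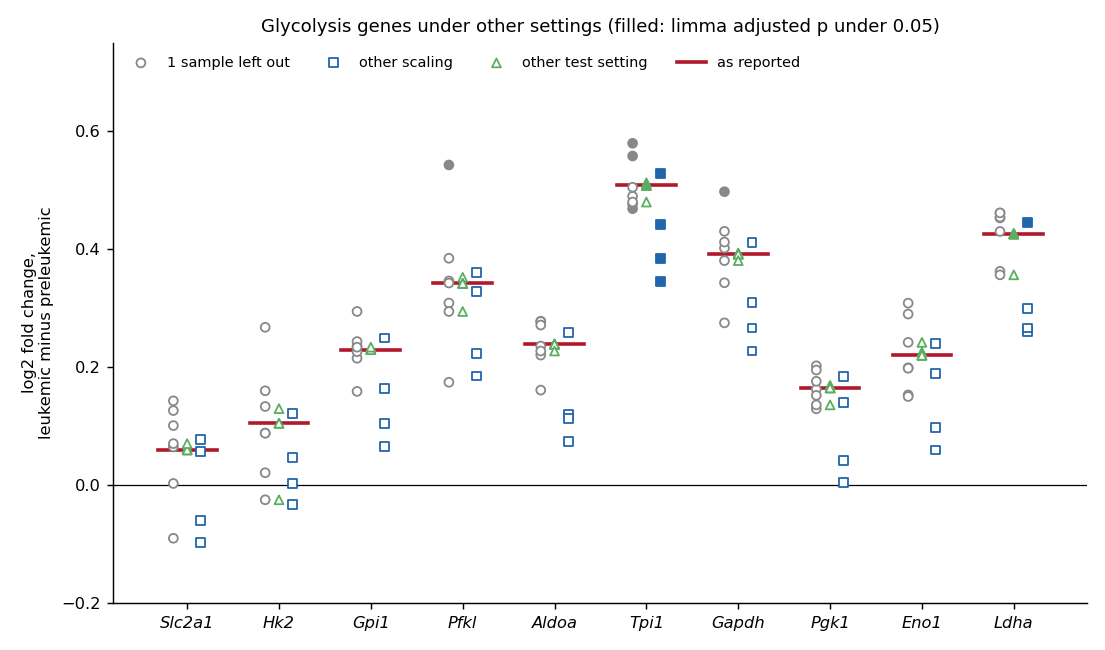
Log2 fold change of each of the 10 genes as reported (red line) and under other scalings (blue squares), with 1 sample left out (grey circles) or with another test setting (green triangles). Filled symbols mark adjusted p under 0.05. Tpi1 stays between 0.35 and 0.58, and the values for Slc2a1 and Hk2 fall on both sides of 0.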

How the data were processed

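RNA-seq was performed on total RNA of sorted BCP cells from the spleens of 3 leukemic and 4 preleukemic Eμ-Ret mice with a stranded mRNA kit. The authors deposited FPKM values for 24341 genes, with 0.01 as the lowest value. The submitters' processing notes list STAR 2.5.0b, bedtools 2.17.0, Cufflinks 2.2.1, Bowtie, DESeq2 and mm10, and their roles were not given in the sources used here. Since FPKM is not a count, the count model of the study's methods was not applied. Its filter, a sum of at least 10 over the samples, was taken over FPKM, as was its threshold of 0.05.

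Groups came from the sample titles. Values were fitted as log2(FPKM + 1) with limma 3.58.1 (R 4.3.3, empirical Bayes with trend) over 10541 genes, with Benjamini-Hochberg adjustment. The pseudocount of 1 understates changes of low genes. Depth was estimated from the steps between low values (76.8% to 82.1% of them whole within 0.1) at 13400000 to 15800000 fragments. For a transcript of 1500 bases at the lowest member mean, this gives a counting error of 9.16% to 9.95%. The length of Hk2 itself was not used. Nothing in the labels says more of how the samples were taken, so the p-values measure only the spread between these samples. Paralog shares were compared by exact permutation tests, and sequences were read from RefSeq. The script was tested on simulated data with 200 changed genes. All 10 members were named, with, from each neighboring pathway list, the 3 most abundant genes and any called gene whose paralog or partner is a member. A few others (Hk1, Pfkp, Pgam1, Ldhb, Slc16a1, Hif1a and the called genes of small lists) were named after their values were seen. The members and lists were chosen with earlier results of these data known. Alternatives were another pseudocount, filter, scaling or variance model, a replicate block and the omission of each sample.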

Additional observations from a re-analysis of the deposited data

How the results depend on the processing

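Over 16 alternatives per gene (15 for Hk2, which a higher filter removed), the direction of every member except Slc2a1 and Hk2 was kept. Slc2a1 turned to -0.10 on rescaling to a common total, to -0.060 on rescaling without erythroid markers and ranged from -0.090 to 0.14 with 1 sample left out. Hk2 turned to -0.034 on rescaling and to -0.025 with the replicate block, and ranged from -0.025 to 0.27 with 1 sample left out. The difference in family share ranged from -2.99 to 7.76 percentage points for Pfkl and from -1.72 to 0.717 for Hk2 with 1 sample left out. These tests could not pass the threshold with fewer samples, and with all samples no family could pass by itself.

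The test called 1553 genes (893 higher, 660 lower) and 2 members. An FPKM sum of at least 70 gave 951 genes (548 higher, 403 lower), with fewer genes tested. Rescaling gave 2917 genes, 2231 of them lower, and 1 member. Quantile normalization gave 1 member. Rescaling without erythroid markers, chosen after seeing the data like the median of ratios and the sum of Eno1 and Eno1b, gave 2479 genes, 1778 of them lower, and 1 member. The higher genes made up 57.5% of the calls as deposited, 23.5% rescaled, 28.3% rescaled without erythroid markers, 45.4% after quantile normalization and 65.1% with no filter. Leaving out 1 sample gave 149 to 1620 genes (107 to 870 higher, 42 to 750 lower) and 0 to 3 members (3 to 6 at an unadjusted p under 0.05), with 932 genes without preleukemic replicate 1, 443 without replicate 2, 271 without replicate 3 and 149 without replicate 4. With 1 sample left out, 2648 to 3883 of the 10541 tested genes had an unadjusted limma p under 0.05. Fewer samples were fitted there, and the cause of the other shifts was not tested.

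The labels do not pair the samples by replicate number. After group means were removed, same-numbered samples had correlations of 0.03, 0.05 and -0.09, and differently numbered ones of -0.11 to 0.11. With so few samples, these values cannot show that no pairing existed. With replicate number as a block, limma called 0 genes (0 higher, 0 lower) and 0 members at an adjusted p under 0.05, with 2429 genes and 3 members at an unadjusted p under 0.05. Tpi1 was then at 0.48 (limma adjusted p = 0.140) and Ldha at 0.36 (0.147), and preleukemic replicate 4, which has no partner, did not contribute to the difference. Counting error at 1 FPKM over 1500 bases was 20.5% to 22.3%, so low genes such as Ldhb and Slc2a4 are the least precise.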

Other observations

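In the citric acid cycle, which oxidizes the acetyl-CoA made from pyruvate, 1 of 16 tested genes was called, Suclg2 (0.38, limma adjusted p = 0.0496), and that call was lost under 14 of 16 alternatives, the omission of any single sample among them. All 16 had log2 fold changes above 0, with a median of 0.12, but 7 of 16 did on rescaling to a common total, with a median of -0.04. The most abundant were Mdh2 (219 ± 14.5 against 186 ± 9.43 FPKM, 0.24, limma adjusted p = 0.0813), Sdhd (0.53, 0.0553) and Idh3g (0.22, 0.0995). Of these, Mdh2 and Idh3g did not overlap between groups.

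In the serine branch, which leaves glycolysis at 3-phosphoglycerate, limma called 0 of 5 tested genes, with 1 at an unadjusted p under 0.05. Over all genes, 3586 of 10541 had an unadjusted limma p under 0.05. Phgdh, the first enzyme, was at 57.8 ± 12.5 FPKM in the leukemic and 56.6 ± 5.12 in the preleukemic samples (0.01, adjusted p = 0.969). Psat1 (0.30, 0.231) and Shmt2 (0.45, 0.0978) were not called either.

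Of 16 tested HIF targets outside the glycolytic enzymes, 5 were higher in the leukemic samples (31.2%, against 8.47% of all tested genes). Slc2a3 and Pfkfb4 are also counted in the lists above. Ddit4, an inhibitor of mTORC1 signaling, was at 163, 45.5 and 129 FPKM in the leukemic and 30.3 to 35.6 FPKM in the preleukemic samples (1.59, limma adjusted p = 0.0380). Bnip3l, a mitophagy receptor also active in red cell maturation, was at 44.0 to 66.5 against 34.7 to 40.7 FPKM (0.52, 0.0499). On rescaling, 1 of the 16 was higher and 2 were lower, where 27.7% of all tested genes were called in either direction. Without preleukemic replicates 1, 2, 3 or 4 the counts of higher genes were 0, 1, 0 and 0.

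Platelet markers summed to 14.3 to 54.8 FPKM in the leukemic and 0.368 to 3.26 FPKM in the preleukemic samples, T and NK cell markers to 25.6 to 82.7 and 27.1 to 34.1 FPKM, and plasma cell markers to 208 to 254 and 140.3 to 150.2 FPKM.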
